A study of Homo sapiens with 24 samples.

Results

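The 10 glycolysis enzyme genes HK2, GPI, PFKP, ALDOA, TPI1, GAPDH, PGK1, ENO1, PKM and LDHA were followed through a set of 24 RNA-seq libraries from acute myeloid leukemia (AML) cell lines. They were chosen by gene symbol, and all 10 were found among the 23354 genes of the count table and passed the filter on low counts. The lines were MV4-11 and KG-1a, both established human AML lines. Each was left untreated or given 1 µM 8-chloro-adenosine (8CA) or 1 µM 8-amino-adenosine (8AA) for 8 h or 24 h, which gave 12 groups of 2 libraries named A and B. Per the labels all cells were wild type and grown in the same serum-containing medium, the controls had no treatment with no vehicle named, and the hours of the untreated libraries stand in their titles alone. 8CA and 8AA are adenosine analogs that carry a chlorine or an amino group at the same place of the purine ring. A difference between the lines rests on these particular lines, and nothing in the labels says that replicates came from separate cultures, so p-values measure the spread between these libraries, which may be technical.

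Glycolysis turns glucose into pyruvate in the cytosol, with a net gain of ATP and NADH, and lactate dehydrogenase returns NADH to NAD+ by making lactate. Hexokinase, phosphofructokinase and pyruvate kinase catalyze its practically irreversible, regulated steps, while the other enzymes work close to equilibrium. Leukemic blasts, like many proliferating cells, ferment much of their glucose even with oxygen, and many of these genes are known targets of HIF1A and MYC.

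The members are given in the order of the pathway from glucose to lactate, which also has a phosphoglycerate mutase step between PGK1 and ENO1 that is not among them. HK2, hexokinase 2, phosphorylates glucose and was listed on chromosome 2 at 75059782 to 75120481, plus strand. GPI, which turns glucose 6-phosphate into fructose 6-phosphate, was listed on chromosome 19 at 34855645 to 34893318, plus strand. PFKP, the platelet-type phosphofructokinase that commits the sugar to glycolysis, was listed on chromosome 10 at 3109712 to 3178997, plus strand. ALDOA, aldolase A, splits fructose 1,6-bisphosphate into a pair of triose phosphates and was listed on chromosome 16 at 30064411 to 30081741, plus strand. TPI1, which interconverts those trioses, was listed on chromosome 12 at 6976584 to 6980110, plus strand, and GAPDH, which oxidizes glyceraldehyde 3-phosphate and makes NADH, on the same chromosome at 6643585 to 6647537, plus strand. PGK1, phosphoglycerate kinase and an ATP-forming step, was listed on chromosome X at 77359666 to 77382324, plus strand. ENO1, enolase 1, was listed on chromosome 1 at 8921059 to 8939151, minus strand. PKM, the muscle-type pyruvate kinase that forms ATP and pyruvate, was listed on chromosome 15 at 72491370 to 72523727, minus strand. LDHA, the A subunit of lactate dehydrogenase, was listed on chromosome 11 at 18415936 to 18429765, plus strand. These are the coordinates of the deposited table, and the submitters' processing notes name both hg19 and hg38 without saying which was used. The last gene of chromosome 1 in the table ended at 249213345, beyond the last RefSeq gene end of 248937099 in GRCh38.p14, so the coordinates are not those of GRCh38.

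Several of these genes have processed pseudogenes in the genome, and reads may have been split with them or with overlapping genes in a way the counts cannot show. Genes named as a member followed by P were found in the table for TPI1 only, TPI1P2 and TPI1P3, with 0.277% as many reads as TPI1. By the spans the table lists, TPI1 overlapped SPSB2 on the other strand, and PGK1 overlapped SPRY3 on its own strand. ENO1 overlapped 3 genes, ENO1-AS1 and LOC100132062 on the other strand and LOC100133331 on its own. ALDOA overlapped 6, of which LOC606724, SLX1A and SLX1B-SULT1A4 lay on its own strand and BOLA2, LOC613038 and SMG1P2 on the other. These overlaps rest on listed start and end positions only. Whether each listed span marks a single locus was not checked, so the overlaps need not mean shared bases. The PKM1 and PKM2 forms of PKM share 1 entry and could not be told apart.

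The upstream sequences of the members were read from the RefSeq promoter table of GRCh38.p14, where all 10 matched, because the genes moved together at 24 h. In the 250 bases before each listed start, the letters ACGTG, the core that HIF factors bind, were searched on both strands, together with CACGTG, the E-box that MYC and MAX and other factors bind, which holds ACGTG within it. ACGTG stood in 11 of 18 windows of the members and in 8 of the 10 genes, against 18.5% of all 35116 windows and 21.7% of all genes. CACGTG stood in 4 windows of 4 members, against 6.34% of windows and 7.73% of genes. The members have more windows per gene than the table's average of 1.29, and a match says only that these letters are there. The shares of all genes are not matched to the members for level of expression. Whether the letters bear on the response to the analogs was not tested. Much of some windows lies in exons of other transcripts of the same gene, 250 of 250 bases for GPI, ENO1, PKM and the first TPI1 window, 225 for the ALDOA window used here, 175 for that of LDHA and 0 for that of HK2. The stretches printed here come from LDHA, HK2 and ALDOA, which together with GAPDH are the members with CACGTG, and show ACGTG, its reverse complement CACGT and CACGTG in capitals. The distal LDHA stretch lies at chr11:18394366-18394395, plus strand, and the proximal one at chr11:18394470-18394499, plus strand. The HK2 stretch is the whole window at chr2:74834920-74835169, plus strand, before the second of its listed starts, and the ALDOA stretch lies at chr16:30064373-30064402, plus strand. The ALDOA and proximal LDHA stretches fall in such exon bases, and so does the end of the distal LDHA stretch.
LDHA distal: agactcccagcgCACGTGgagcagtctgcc
LDHA proximal: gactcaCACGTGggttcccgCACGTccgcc
HK2: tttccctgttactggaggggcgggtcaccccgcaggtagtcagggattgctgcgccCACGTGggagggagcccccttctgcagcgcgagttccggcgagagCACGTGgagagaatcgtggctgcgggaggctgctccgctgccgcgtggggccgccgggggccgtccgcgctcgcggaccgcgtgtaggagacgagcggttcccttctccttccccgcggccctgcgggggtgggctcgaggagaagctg
ALDOA: tggcagggaggcCACGTGatccgagtcccc
LDHA thus held 3 such places in 1 window, of which 2 were the full CACGTG, and HK2 held 2 full CACGTG.

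Total counts lay between 18633963 and 24520078 per library, and the members themselves had between 2011 and 111714 counts in a library. Replicates of a group differed more than counting error in all 12 groups, with a chi-square per degree of freedom of 1.43 to 5.20 in 11 of them. The exception was KG-1a after 8AA for 24 h, where it was 12.3, and results that rest on those libraries are given without each of them where they change. MV4-11 libraries held FLT3 at 415 to 596 and CD33 at 102 to 135 CPM (counts scaled to the library size) with CD34 at most 0.165 CPM, whereas KG-1a libraries held CD34 at 340 to 656 CPM with FLT3 at most 1.38 and CD33 at most 1.06 CPM. CD3E, a T-cell gene, was present in KG-1a at 22.9 to 81.7 CPM and absent in MV4-11, and the sum of 7 markers of other cell types was 70.6 and 82.7 CPM in KG-1a after 8AA for 24 h against 38.2 and 39.2 CPM untreated. EPCAM, an epithelial gene, was at 0 in every library. KRT8, another epithelial marker, was at 3.51 to 7.99 CPM in MV4-11 and at most 0.546 CPM in KG-1a. The part of these markers in the results was not tested. In bulk RNA, fewer cells of a kind and less RNA of a gene per cell cannot be told apart, and a drop in the RNA of all genes would not be seen in values scaled to the library.

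In untreated cells GAPDH was by far the most abundant member per exon length and HK2 the least, and most members were higher in MV4-11 than in KG-1a. Levels are given here in RPKM, CPM per kilobase of exon, with both lines scaled together. GAPDH was highest, at 2933 and 2969 RPKM in the MV4-11 libraries of 24 h and 1992 and 2056 in those of KG-1a. ENO1 came next, at 676 and 690.2 RPKM in MV4-11 and 579 and 600.2 in KG-1a, followed by LDHA at 555 and 569 in MV4-11 and 464 and 468 in KG-1a. GPI, PFKP and HK2 were lowest, with GPI above PFKP and PFKP above HK2 in every untreated library. HK2 had 29.01 and 29.3 RPKM in MV4-11 and 23.5 and 25.4 in KG-1a, PFKP had 49.5 and 48.96 in MV4-11 and 43.2 and 46.6 in KG-1a, and GPI had 78.6 and 78.1 in MV4-11 and 53.9 and 55.1 in KG-1a. Between these ends the lines were ordered differently. In MV4-11 at 24 h the order was ALDOA at 456 and 464 RPKM, TPI1 at 364 and 375, PKM at 341 and 345, and then PGK1 at 289.8 and 308. In KG-1a PKM at 284 and 303 RPKM overlapped PGK1 at 296 and 295, and lower came ALDOA at 243 and 257 and TPI1 at 193 and 197.

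**Figure D1:**
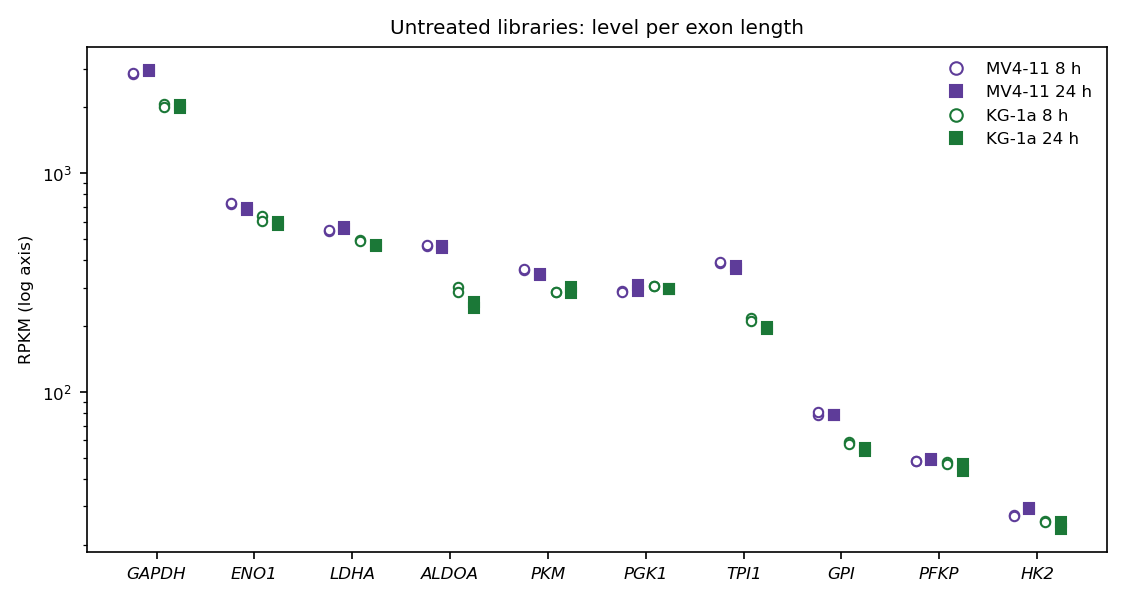
Level per exon length (RPKM, log axis) of the 10 genes in the 8 untreated libraries, with both lines scaled together and each point 1 library (circles 8 h, squares 24 h). GAPDH lies above all others, HK2, PFKP and GPI lie lowest, and TPI1 and ALDOA show the widest gap between the lines.

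The lines were compared with the quasi-likelihood test of edgeR, and p-values were adjusted by Benjamini-Hochberg over every gene tested. A gene with an adjusted p under 0.05 is called. Untreated MV4-11 was called higher than KG-1a for 8 members at 8 h and 9 at 24 h, and lower for 0. Of all genes 82.2% and 82.0% were called in either direction, so without regard to direction the number called is close to that of any genes. The share of all genes called higher in MV4-11 was not counted. TPI1 differed most, by 0.87 ± 0.061 (SE) on the log2 scale at 8 h and 0.92 ± 0.061 at 24 h, followed by ALDOA with 0.66 and 0.88. GAPDH and GPI differed by 0.54 and 0.53 at 24 h, and the other called members by 0.13 to 0.27. PGK1 was not called at either hour under TMM scaling, with a log2 difference of −0.087 (95% interval −0.18 to 0.00062) at 8 h and 0.017 (−0.070 to 0.11) at 24 h. The call of HK2 at 8 h, 0.095 with an adjusted p of 0.046, was lost when any of the 4 libraries was left out, with log2 differences from 0.087 to 0.10. That of PFKP at 24 h was lost without MV4-11 untreated replicate A (adjusted p = 0.0867), replicate B (0.0599) or KG-1a untreated replicate A (0.259, at a log2 difference of 0.081). These differences depended on the scaling. By library size only, HK2 (0.673) and LDHA (0.102) lost their calls at 8 h and PFKP (0.643) and ENO1 (0.0685) at 24 h, while PGK1 was called lower in MV4-11 at both hours, at −0.16 (0.000189) and −0.091 (0.0203).

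The hours of culture were compared without drug. Of untreated libraries at 24 h against 8 h, 0 members were called in MV4-11 and 0 in KG-1a by edgeR, where 5.54% and 4.45% of all genes were called. At an unadjusted p under 0.05 the count was 1 in each line, HK2 in MV4-11 with a log2 change of 0.10 and ALDOA in KG-1a with −0.22. By DESeq2, 0 members were called in MV4-11 and 1 in KG-1a, again ALDOA, at −0.23 with an adjusted p of 0.0229.

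**Figure D2:**
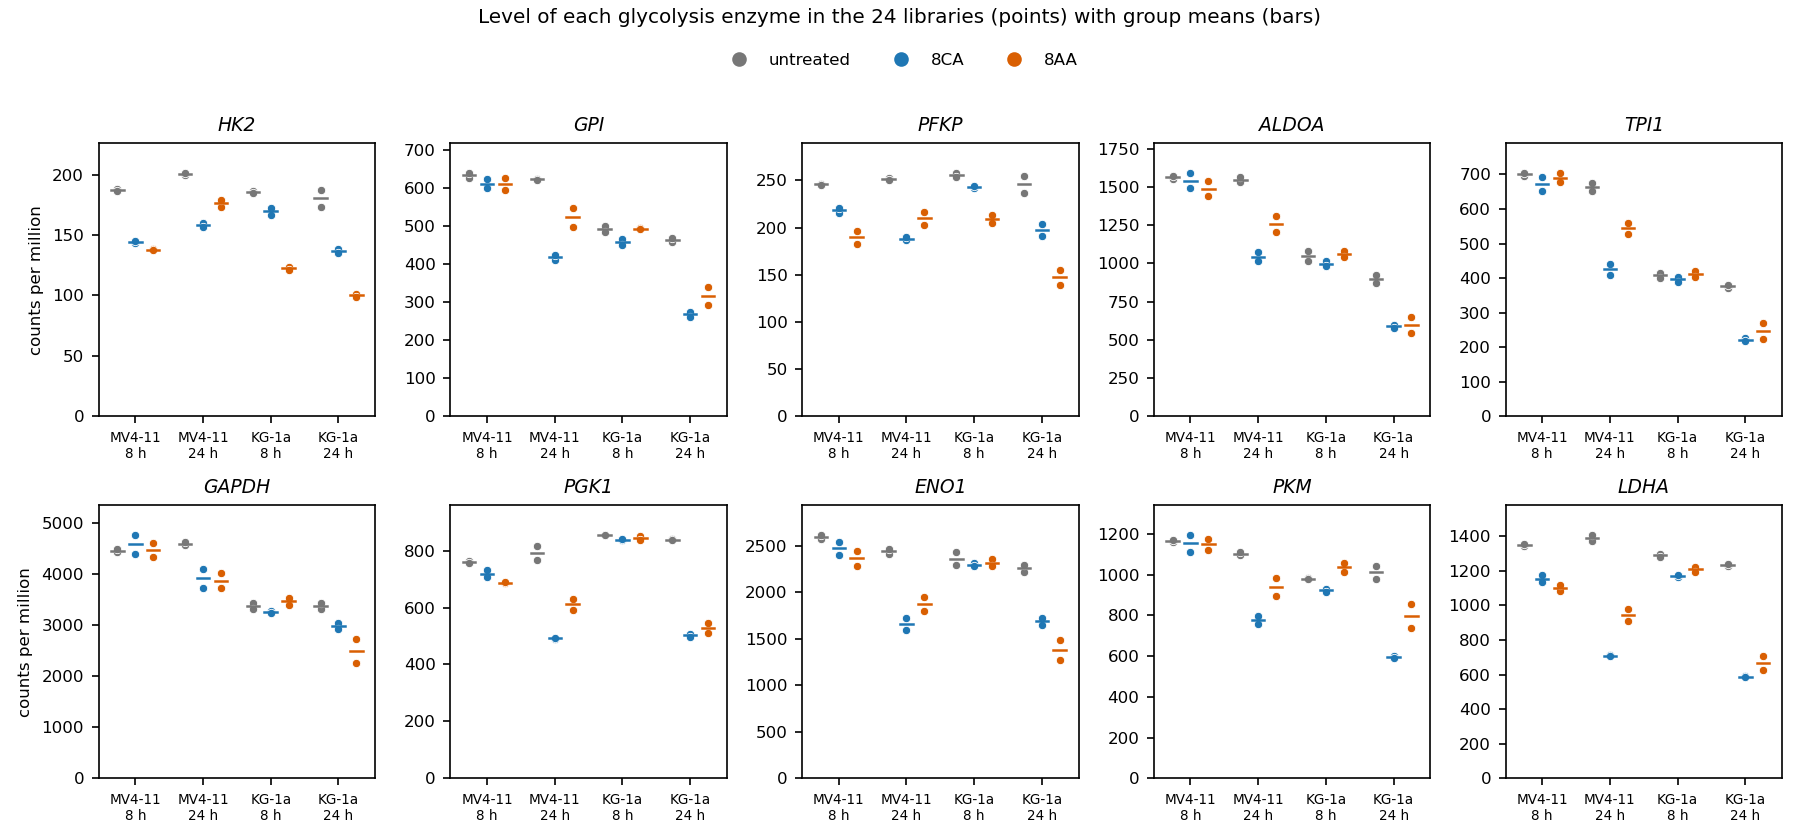
Counts scaled to the library size (CPM) of each gene in the 24 libraries, scaled within each line, with points for single libraries, short bars for the mean of 2, and axes that start at 0. At 24 h all treated libraries of both lines lie below the untreated ones in each of the 10 panels, whereas at 8 h most panels show little distance except for HK2, PFKP and LDHA.

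At 8 h HK2 and PFKP, which are forms of hexokinase and phosphofructokinase, were already called lower with both analogs in MV4-11 and after 8AA in KG-1a. LDHA was called lower with both analogs in MV4-11. Most of the middle of the pathway did not pass the test. Levels from here on are CPM scaled within each line, with replicate A before replicate B. Of other forms, not among the members, PFKL lay at 309 to 327 CPM in untreated MV4-11 at 8 h, 316 to 332 after 8CA and 317 to 336 after 8AA. In KG-1a PFKL lay at 131 to 136 untreated, 119 to 124 after 8CA and 142 to 143 after 8AA. HK1 lay at 106 to 108 in untreated MV4-11, 97.9 to 106 after 8CA and 101 to 103 after 8AA. In KG-1a HK1 lay at 175 to 183 untreated, 165 to 168 after 8CA and 162 to 166 after 8AA. With 8CA in MV4-11, 3 members were called lower, where 5.77% of all genes were called lower and 4.58% higher. With 8AA in MV4-11, 4 were called lower, against 15.6% and 13.6% of all genes. KG-1a given 8CA had 0 members called by edgeR in either direction, against 0.181% of all genes lower and 0.700% higher, and 2 members, HK2 and LDHA, had an unadjusted p under 0.05. DESeq2 also called 0 there. KG-1a given 8AA had 2 called lower, against 18.0% and 16.7% of all genes, so the number called lower was close to that of any genes.

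HK2 was at 188 and 186 CPM in untreated MV4-11, at 143 and 145 after 8CA and at 138 and 137 after 8AA at 8 h. Both analogs thus took it below the untreated libraries without overlap, with log2 fold changes of −0.37 ± 0.041 (adjusted p = 6.63e-05) and −0.44 ± 0.041 (2.27e-06). In KG-1a it was at 187 and 185 untreated, at 173 and 166 after 8CA and at 124 and 121 after 8AA. There it fell by 34.1% after 8AA, a log2 fold change of −0.60 (adjusted p = 3.67e-07), while the value after 8CA, −0.13 with a 95% interval of −0.23 to −0.029, did not pass (adjusted p = 0.243). PFKP stood at 246 and 245 CPM untreated, 216 and 221 after 8CA and 183 and 196 after 8AA in MV4-11, and the groups did not overlap. In KG-1a it stood at 258 and 253 untreated, 241 and 245 after 8CA and 213 and 205 after 8AA. Its log2 fold changes were −0.17 (adjusted p = 0.0264) and −0.38 (2.73e-05) in MV4-11, and −0.074 (0.625) and −0.29 (0.00073) in KG-1a. The 8CA call of PFKP in MV4-11 was lost when any of the 4 libraries was left out, at log2 fold changes of −0.20 to −0.17 and adjusted p values of 0.0602 to 0.0928.

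LDHA, at the lactate end, was at 1341 and 1353 CPM untreated, 1133 and 1178 after 8CA and 1081 and 1118 after 8AA in MV4-11 at 8 h. It fell by 14.3% and fell by 18.4%, with adjusted p values of 0.00467 and 0.000136. In KG-1a LDHA was at 1299.5 and 1282 untreated, 1167 and 1178 after 8CA and 1223 and 1195 after 8AA, and the corresponding log2 fold changes were −0.14 (adjusted p = 0.213) and −0.094 (0.141). PGK1 was called lower after 8AA in MV4-11 and in none of the other comparisons at 8 h, at −0.14 (adjusted p = 0.0231), and that call was lost without MV4-11 untreated replicate A (0.0741), 8AA replicate A (0.089) or 8AA replicate B (0.0562), and with scaling by library size only (0.0513) or upper quartile (0.0769). GPI, ALDOA, TPI1, GAPDH, ENO1 and PKM were not called in any comparison of an analog with untreated cells at 8 h, with log2 fold changes between −0.13 and 0.082. ENO1 after 8AA in MV4-11, −0.13 (adjusted p = 0.0677), was called in 5 of 12 alternatives: without 8AA replicate B, at −0.18, with DESeq2's size factors (adjusted p = 0.0488), without a filter (0.0093), with the replicate block (0.00255) and by DESeq2 (0.0412). The 95% intervals of the members at 8 h reached at most 0.137 on the log2 scale to either side, without adjustment over all genes. Calls rest on adjusted p values, so changes of that size and somewhat larger could go uncalled, as LDHA did after 8CA in KG-1a at −0.14. The median over the 10 members was −0.064 after 8CA and −0.10 after 8AA in MV4-11, and −0.072 and −0.0082 in KG-1a, beside medians over all genes between −0.0047 and 0.0072.

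**Figure D3:**
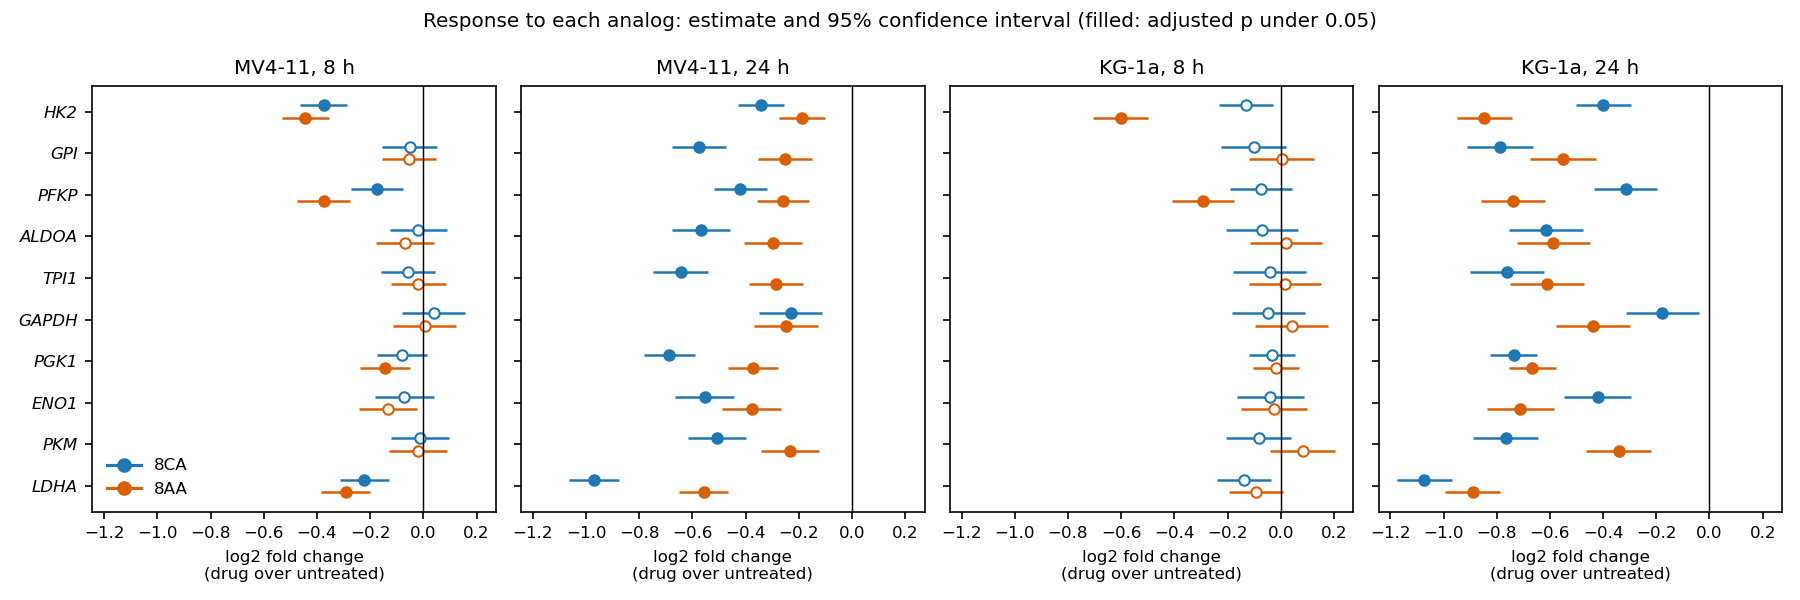
Log2 fold change of each gene against the untreated libraries of the same line and hour, with 95% confidence intervals, for 8CA (blue) and 8AA (orange), and filled points where the adjusted p is under 0.05. Every point at 24 h is filled and lies below 0, while at 8 h the filled points belong to HK2, PFKP, LDHA and PGK1.

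At 24 h all 10 enzymes, from hexokinase to lactate dehydrogenase, were called lower with either analog in either line. The 8CA and 8AA comparisons of a line and hour share their untreated libraries. With 8CA in MV4-11 this was set against 22.7% of all genes called lower and 21.2% higher, and after 8AA against 15.3% and 13.9%. In KG-1a the shares of all genes were 24.0% lower and 23.4% higher after 8CA, and 26.6% lower and 25.4% higher after 8AA. The median log2 fold change of the members was −0.56 after 8CA and −0.27 after 8AA in MV4-11, and −0.68 and −0.64 in KG-1a, while that of all genes lay between 0.0022 and 0.013. Summed over the 10 genes, the level was 13461 and 13742 CPM in untreated MV4-11, 9463 and 10106 after 8CA and 10534 and 11367 after 8AA. In KG-1a the sum was 10704 and 11067 CPM untreated, 7914 and 7625 after 8CA and 7835 and 6706 after 8AA, and treated libraries lay below untreated ones in both lines without overlap.

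LDHA fell furthest of the members in all 4 comparisons at 24 h. In MV4-11 it went from 1372 and 1409 CPM untreated to 714 and 705 after 8CA and 911 and 978 after 8AA, so that it fell by 48.98% and fell by 32.1%. In KG-1a it went from 1230.1 and 1242 untreated to 591 and 585 after 8CA and 705 and 628 after 8AA, so that it fell by 52.4% and fell by 46.1%. The log2 fold changes were −0.97 ± 0.044, −0.56 ± 0.044, −1.07 ± 0.048 and −0.89 ± 0.048 in that order, with edgeR adjusted p values from 1.93e-10 to 6.62e-07. Between 0.732% and 2.31% of all genes tested fell further than LDHA in these comparisons.

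In the upper part of the pathway, HK2 was at 199 and 202 CPM in untreated MV4-11, 159.6 and 157 after 8CA and 173 and 179 after 8AA. Its drop after 8AA in KG-1a was larger, from 173 and 188 to 101 and 99.04 CPM, where it fell by 44.4%, while after 8CA it was at 138 and 135. GPI, the isomerase after hexokinase, went from 624 and 622 to 411 and 425 after 8CA and 498 and 548 after 8AA in MV4-11, and from 458 and 469 to 275 and 262 after 8CA and 341 and 292 after 8AA in KG-1a. Neither gene had a treated library that reached an untreated one. PFKP showed the order of HK2 in KG-1a, with 237 and 255 CPM untreated, 204 and 192 after 8CA and 155 and 139 after 8AA, and log2 fold changes of −0.32 ± 0.055 and −0.74 ± 0.056. In MV4-11 PFKP had 252 and 250.5 CPM untreated, 186 and 189.5 after 8CA and 203 and 217 after 8AA. All of these drops were called, and the highest adjusted p among HK2, GPI and PFKP at 24 h was 0.00284, of HK2 after 8AA in MV4-11.

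ALDOA and TPI1 make and interconvert the trioses. ALDOA went from 1529 and 1562 CPM to 1012 and 1073 after 8CA and 1206 and 1308 after 8AA in MV4-11, and from 874 and 925 to 599 and 577 after 8CA and 651 and 546 after 8AA in KG-1a. TPI1 had 653 and 675 untreated, 409 and 441 after 8CA and 529 and 561 after 8AA in MV4-11. In KG-1a it had 372 and 379.7 untreated, 226 and 218 after 8CA and 269 and 223 after 8AA, and in neither gene did a treated library reach an untreated one. The log2 fold changes of ALDOA and TPI1 after 8CA were −0.57 and −0.64 in MV4-11 and −0.61 and −0.76 in KG-1a. Their standard errors were 0.049 to 0.066. With 8AA they were −0.30 and −0.29 in MV4-11 and −0.59 and −0.61 in KG-1a.

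Of the enzymes that make ATP and pyruvate, PGK1 went from 766 and 817 CPM to 488 and 495 after 8CA and 591 and 631 after 8AA in MV4-11, and from 839.6 and 836 to 508 and 497 after 8CA and 544 and 512 after 8AA in KG-1a. Its log2 fold changes were −0.69 ± 0.045 and −0.37 ± 0.045 in MV4-11 and −0.74 ± 0.041 and −0.67 ± 0.041 in KG-1a. ENO1 fell from 2413 and 2471 CPM to 1599 and 1726 after 8CA and 1806 and 1954 after 8AA in MV4-11, and from 2219 and 2300.2 to 1729 and 1649 after 8CA and 1485 and 1274 after 8AA in KG-1a. The groups of both genes lay apart from their controls, and ENO1, enolase, was lower after 8AA than with 8CA in KG-1a. PKM had the other order of analogs in KG-1a. It stood at 980.4 and 1045 CPM untreated there, at 601 and 589.6 after 8CA and at 858 and 739 after 8AA, and in MV4-11 at 1096 and 1112 untreated, 758 and 796 after 8CA and 895 and 984 after 8AA. Adjusted p values of PGK1, ENO1 and PKM at 24 h were at most 0.00299.

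GAPDH, the most abundant member and often used as a reference gene, had the highest adjusted p of the members in 3 of the 4 comparisons at 24 h, after 8AA in KG-1a as the exception. It was at 4557 and 4624 CPM in untreated MV4-11, 3725 and 4099.7 after 8CA and 3722 and 4007 after 8AA, and at 3321 and 3428 in untreated KG-1a, 3043 and 2921 after 8CA and 2726 and 2254 after 8AA. No treated library reached an untreated one. The log2 fold changes were −0.23 ± 0.056 (adjusted p = 0.00353) and −0.25 ± 0.056 (0.00367) in MV4-11, and −0.18 ± 0.065 (0.0329) and −0.44 ± 0.065 (3.90e-05) in KG-1a. The 8CA call in KG-1a was lost when any 1 of its 4 libraries was left out, with log2 fold changes from −0.22 to −0.15. With all libraries it was also lost under upper quartile scaling, at −0.14 (edgeR adjusted p = 0.0839). The 8CA call in MV4-11 was lost without 8CA replicate A, at −0.16. With 8AA in KG-1a, where the replicates stood apart, GAPDH was −0.31 without replicate B and −0.58 without replicate A, and all 10 members stayed called lower without either.

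The analogs were compared directly at matched dose and hour, in 4 comparisons. In MV4-11 at 24 h, 9 of 10 members were called higher after 8AA than with 8CA, that is, 8CA lowered them further, where 21.2% of all genes were called in either direction. LDHA differed most, by 0.41 ± 0.044 on the log2 scale (adjusted p = 8.86e-06), then TPI1 by 0.36, GPI by 0.32 and PGK1 by 0.31, and the other 5 called members by 0.16 to 0.27. GAPDH did not differ beyond its error, at −0.018 with a 95% interval of −0.14 to 0.10. The 3 smallest differences turned on single libraries. Those of HK2, 0.16, PFKP, 0.16, and ENO1, 0.18, lost their calls without 8CA replicate A (adjusted p = 0.0658, 0.151 and 0.255) or without 8AA replicate B (0.118, 0.223 and 0.214, where ENO1 was 0.11), and HK2 and PFKP also without 8CA replicate B (0.0969 and 0.0766).

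In KG-1a at 24 h the members split, with 4 called lower and 3 called higher after 8AA than with 8CA, where 42.0% of all genes were called in either direction. HK2 and PFKP, of the entry and commitment steps, were lower after 8AA, at −0.45 (adjusted p = 4.00e-06) and −0.42 (2.39e-05). ENO1 and GAPDH were lower too, at −0.29 and −0.26. PKM was higher after 8AA by 0.42 ± 0.058 (adjusted p = 3.06e-05), and GPI and LDHA by 0.24 and 0.18. Without 8CA replicate B the last 2 lost their calls, with adjusted p values of 0.056 and 0.0566. ALDOA, TPI1 and PGK1 were not called, with 95% intervals of −0.11 to 0.16, 0.011 to 0.29 and −0.017 to 0.16. Those 3 depended on the 8AA library kept and, for TPI1 and PGK1, on the processing. ALDOA was −0.11 (adjusted p = 0.0403) without 8AA replicate A and 0.15 (0.00457) without replicate B, and TPI1 and PGK1 were called higher without replicate B, at 0.28 and 0.11. TPI1 was also called higher with library size only (0.0103), upper quartile scaling (0.0319), no filter (0.0153) and the replicate block (0.0372), and PGK1 with library size only (0.00691) and upper quartile scaling (0.047). The sizes of called differences moved as well. Without replicate A, GPI was 0.12, LDHA 0.10 and GAPDH −0.40, and without replicate B GAPDH was −0.13 and ENO1 −0.19.

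**Figure D4:**
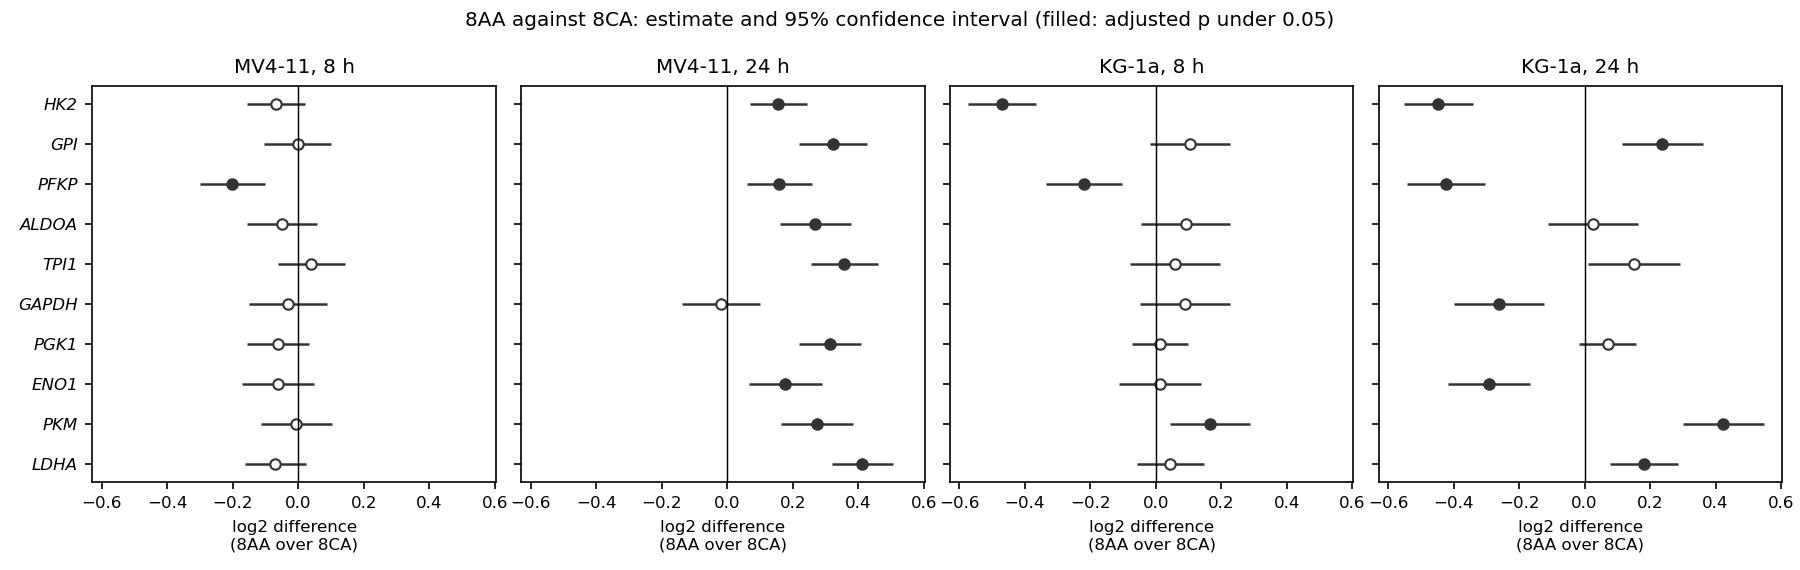
Log2 difference of 8AA over 8CA for each gene at matched line and hour, with 95% confidence intervals and filled points where the adjusted p is under 0.05. In MV4-11 at 24 h all points but GAPDH lie to the right of 0. In KG-1a at 24 h HK2, PFKP, ENO1 and GAPDH lie to the left and all others to the right. Of those to the right, PKM, GPI and LDHA are filled and ALDOA, TPI1 and PGK1 are open.

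At 8 h the numbers of members that told the analogs apart were close to the shares of all genes called. PFKP was the single member called in MV4-11, lower after 8AA at −0.20 (adjusted p = 0.0162), where 6.66% of all genes were called. That call was lost without 8CA replicate A (0.0567), 8CA replicate B (0.1) or 8AA replicate A (0.149). In KG-1a 3 members were called, where 30.4% of all genes were. HK2 was lower after 8AA, at −0.47 (adjusted p = 5.53e-06), and PFKP at −0.22 (0.00712), while PKM was higher by 0.17 (0.0388). The call of PKM was lost without any 1 of the 4 libraries, with adjusted p values of 0.0767 to 0.222, and that of PFKP without 8CA replicate B (0.0594) or 8AA replicate B (0.0787). HK2 thus differed between the analogs in KG-1a at both hours in the same direction.

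Whether a response grew with time was tested as the difference between the 24 h and the 8 h log2 fold change. With 8CA in MV4-11, 9 members fell further at 24 h, where 16.3% of all genes were called, and HK2 did not, at 0.032 with a 95% interval of −0.091 to 0.15. LDHA deepened most, at −0.75, and PGK1 and TPI1 followed with −0.61 and −0.59. In KG-1a after 8CA 9 members fell further, against 23.9% of all genes, with LDHA at −0.93 and GAPDH alone not called, at −0.13. With 8AA in KG-1a all 10 fell further, against 18.3% of all genes, from −0.24 for HK2 to −0.80 for LDHA. In MV4-11 the 8AA response changed least with time, with 4 members called where 4.63% of all genes were. HK2 went the other way there, from −0.44 at 8 h to −0.19 at 24 h, a difference of 0.26 ± 0.058 (adjusted p = 0.0214), while TPI1, PGK1 and LDHA fell further, at −0.27, −0.23 and −0.27. Each of these 4 calls was lost without some single libraries. The number of members called in that comparison lay between 0 and 7 as libraries were left out in turn. HK2 was not called without either untreated library of 8 h or 24 h, 8AA replicate B of 8 h or either 8AA library of 24 h, at 0.23 to 0.27. TPI1 lost its call without either untreated library of 8 h or 24 h, 8AA replicate B of 8 h or 8AA replicate A of 24 h, with an adjusted p up to 0.144. PGK1 lost it without any library of 8 h, untreated replicate B of 24 h or 8AA replicate A of 24 h (up to 0.201), and LDHA without untreated replicate B of either hour, 8AA replicate B of 8 h or 8AA replicate A of 24 h (up to 0.101).

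Some of the smaller time differences in the other comparisons also turned on 1 library. With 8CA in MV4-11, GAPDH, at −0.27, was not called without either untreated library of 8 h or 24 h, 8CA replicate B of 8 h or 8CA replicate A of 24 h, with values from −0.27 to −0.19 and adjusted p values from 0.06 to 0.162. PFKP, at −0.25, was not called without untreated replicate B of 8 h, 8CA replicate B of 8 h, either untreated library of 24 h or 8CA replicate A of 24 h (adjusted p up to 0.0798). In KG-1a after 8CA, PFKP, at −0.24, was not called without untreated replicate B of either hour, either 8CA library of 8 h or 8CA replicate B of 24 h (up to 0.162). HK2 there, at −0.27, was not called without 8CA replicate A of 8 h (0.0575), untreated replicate B of 24 h (0.0678) or 8CA replicate B of 24 h (0.0521). With 8AA in KG-1a, HK2 was not called without untreated replicate B of 8 h (0.0606), 8AA replicate A of 8 h (0.09) or untreated replicate B of 24 h (0.12, at −0.19), nor with library size only (0.0645), upper quartile scaling (0.083) or DESeq2 (0.0517), so that 9 of the 10 were called there.

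The lines were compared as the difference of their responses, MV4-11 minus KG-1a, in a fit of all 24 libraries. With 8CA at 8 h 0 members were called, where 1.15% of all genes were, with HK2 alone at an unadjusted p under 0.05 (log2 difference −0.23, adjusted p = 0.0671), and DESeq2 called 1, HK2, with an adjusted p of 0.0485. At 24 h 1 was called, where 11.2% of all genes were: PKM fell less in MV4-11, by 0.28 (adjusted p = 0.0277). That call was lost without any 1 of 6 of the 8 libraries, with MV4-11 8CA replicate A and KG-1a untreated replicate A as the exceptions, at adjusted p values of 0.0683 to 0.137. With 8AA at 8 h HK2 was the single member called, where 11.1% of all genes were, having fallen less in MV4-11 by 0.20 (adjusted p = 0.038), and this was lost without any 1 of the 8 libraries (adjusted p of 0.0627 to 0.149). HK2 was called in 1 of 15 alternatives, the replicate block (0.0481). LDHA was called in its place, having fallen more in MV4-11, with library size only (−0.19, adjusted p = 0.0244), no filter (−0.23, 0.00536) and at least 10 counts in every library (−0.20, 0.0349).

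With 8AA at 24 h, 8 of 10 members had fallen less in MV4-11 than in KG-1a, where 22.3% of all genes were called in either direction. HK2 differed most, by 0.68 ± 0.062 (adjusted p = 3.57e-08), and PFKP by 0.50 ± 0.076 (2.99e-05). LDHA, PGK1, ENO1, TPI1, GPI and ALDOA differed by 0.31 to 0.36, while GAPDH, at 0.21, and PKM, at 0.13, were not called. Without KG-1a 8AA replicate B the count fell to 4, and GPI, ALDOA, TPI1 and ENO1 had log2 differences of 0.13, 0.11, 0.14 and 0.17. HK2, PFKP, LDHA and PGK1 stayed called without it, at 0.59, 0.35, 0.20 and 0.19. ALDOA also lost its call without MV4-11 8AA replicate B (0.0819) or KG-1a untreated replicate B (0.0713). GAPDH and PKM were called without KG-1a 8AA replicate A, at 0.35 and 0.24.

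Other genes of glucose metabolism were counted in 4 lists at 24 h, which were chosen with earlier results known. They are to be read against the shares of all genes called at 24 h, 22.7% lower and 21.2% higher after 8CA and 15.3% and 13.9% after 8AA in MV4-11, and 24.0% and 23.4% after 8CA and 26.6% and 25.4% after 8AA in KG-1a. Of 25 other glycolysis isozymes and enzymes, 14 passed the filter in MV4-11 and 13 in KG-1a. Of those, 8 were called lower and 2 higher after 8CA in MV4-11 (median log2 fold change −0.35), 5 lower and 2 higher after 8AA (−0.13), 7 lower and 0 higher after 8CA in KG-1a (−0.20), and 7 lower and 1 higher after 8AA (−0.15). PGAM1, the phosphoglycerate mutase between PGK1 and ENO1, was called lower in all 4, at −0.75 and −0.39 in MV4-11 and −0.75 and −0.50 in KG-1a. LDHB, the B subunit of lactate dehydrogenase, was at −0.33 and −0.27 in MV4-11 and −0.50 and −0.48 in KG-1a, all called lower, and whether these differ from the LDHA values was not tested. ALDOC, the brain-type aldolase and a low-abundance gene here, did not move one way in both lines. In MV4-11 it went from 25.1 and 33.6 CPM untreated to 10.1 and 10.1 after 8CA and 22.5 and 25.04 after 8AA, with log2 fold changes of −1.54 and −0.30. The untreated level itself differed between the hours, with 11.3 and 11.5 CPM at 8 h, where 8CA gave 10.7 and 11.3. In KG-1a it was at 1.52 and 2.12 CPM untreated and 1.77 and 1.79 after 8CA, and it rose to 4.68 and 4.78 after 8AA, a log2 fold change of 1.37 (adjusted p = 1.87e-05). ENO2, the neuron-type enolase, was called lower in MV4-11 at −1.32 after 8CA and −0.87 after 8AA, from 1.87 and 2.98 CPM (40 and 66 counts) untreated to 0.907 and 1.04 and 1.28 and 1.37 CPM, beside 24 and 24 counts untreated at 8 h, and not called in KG-1a. LDHD, the D-lactate dehydrogenase of mitochondria, rose after 8AA in MV4-11 from 2.17 and 2.34 to 3.31 and 3.53 CPM.

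Of 10 glucose and lactate transport genes, 8 were tested in each line. Of those, 6 were called lower and 1 higher after 8CA and 4 lower and 0 higher after 8AA in MV4-11, and 5 lower and 1 higher after 8CA and 7 lower and 0 higher after 8AA in KG-1a, with medians of −0.41, −0.27, −0.31 and −0.72. SLC2A3, the high-affinity glucose transporter GLUT3, was the one called higher after 8CA in KG-1a, at 0.20 from 87.3 and 92.9 to 103 and 103 CPM, and it fell after 8AA there by 0.73 on the log2 scale, to 53.02 and 55.6 CPM. In MV4-11 it was called lower with both, at −0.42 and −0.74, from 25.2 and 30.9 CPM untreated, which was 12.5 and 13.5 CPM at 8 h. SLC2A6, another gene of the glucose transporter family, was called lower in 3 of the 4 comparisons, at −0.86 after 8CA in MV4-11, −0.87 after 8CA in KG-1a and −0.54 after 8AA in KG-1a. SLC2A4 and SLC2A14 had the largest log2 values of the list at 24 h but rested on few counts. SLC2A4, the insulin-responsive GLUT4, had 30 and 41 counts in untreated KG-1a and 14 and 20 after 8CA, and SLC2A14 had 5 and 10 in untreated MV4-11 and 14 and 22 after 8CA. At 8 h, KG-1a after 8AA already had 6 of the 8 called lower, where 18.0% of all genes were, with a median of −0.61, while the members' median there was −0.0082.

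Regulators of phosphofructokinase and of pyruvate entry into mitochondria made up a list of 17 genes. Of 16 tested in MV4-11, 6 were called lower and 2 higher after 8CA and 3 lower and 2 higher after 8AA, and of 15 in KG-1a 6 lower and 1 higher after 8CA and 8 lower and 1 higher after 8AA. The counts after 8AA in MV4-11 are close to the shares of all genes, 15.3% lower and 13.9% higher. Medians were −0.16, −0.090, −0.20 and −0.24. PFKFB2, which makes the activator fructose 2,6-bisphosphate, rose in MV4-11 by 0.80 after 8CA and 0.67 after 8AA, whereas its relative PFKFB4 was called lower there, at −0.72 and −0.36. DLAT, a subunit of the pyruvate dehydrogenase complex, fell in all 4, most after 8AA in KG-1a at −0.80. TIGAR, which breaks fructose 2,6-bisphosphate down, was called lower in KG-1a, at −0.73 and −0.63, and in MV4-11 was at −0.093 and −0.079 without passing the test.

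The pentose phosphate branch, which makes NADPH and ribose from glucose 6-phosphate, was counted in 8 genes. In MV4-11 6 of 8 were called lower and 2 higher after 8CA, and 1 lower and 2 higher after 8AA, with medians of −0.23 and −0.060, and the latter counts are near the shares of all genes, 15.3% and 13.9%. In KG-1a 3 of 7 were called lower and 1 higher after 8CA, and 6 lower and 0 higher after 8AA, with medians of −0.12 and −0.30. RPIA, ribose 5-phosphate isomerase, was at −0.30 after 8CA in MV4-11, −0.54 after 8CA in KG-1a and −0.85 after 8AA in KG-1a, all called lower. TALDO1, transaldolase, was called lower in MV4-11 at −0.43 and −0.34, and RPE, which epimerizes ribulose 5-phosphate, after 8CA in both lines at −0.32 and −0.20 and after 8AA in KG-1a at −0.40. TKTL1, a transketolase-like gene, was called higher in MV4-11 with both analogs, but its counts were 1 and 2 in the untreated libraries, 20 and 27 after 8CA and 19 and 23 after 8AA.

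**Figure D5:**
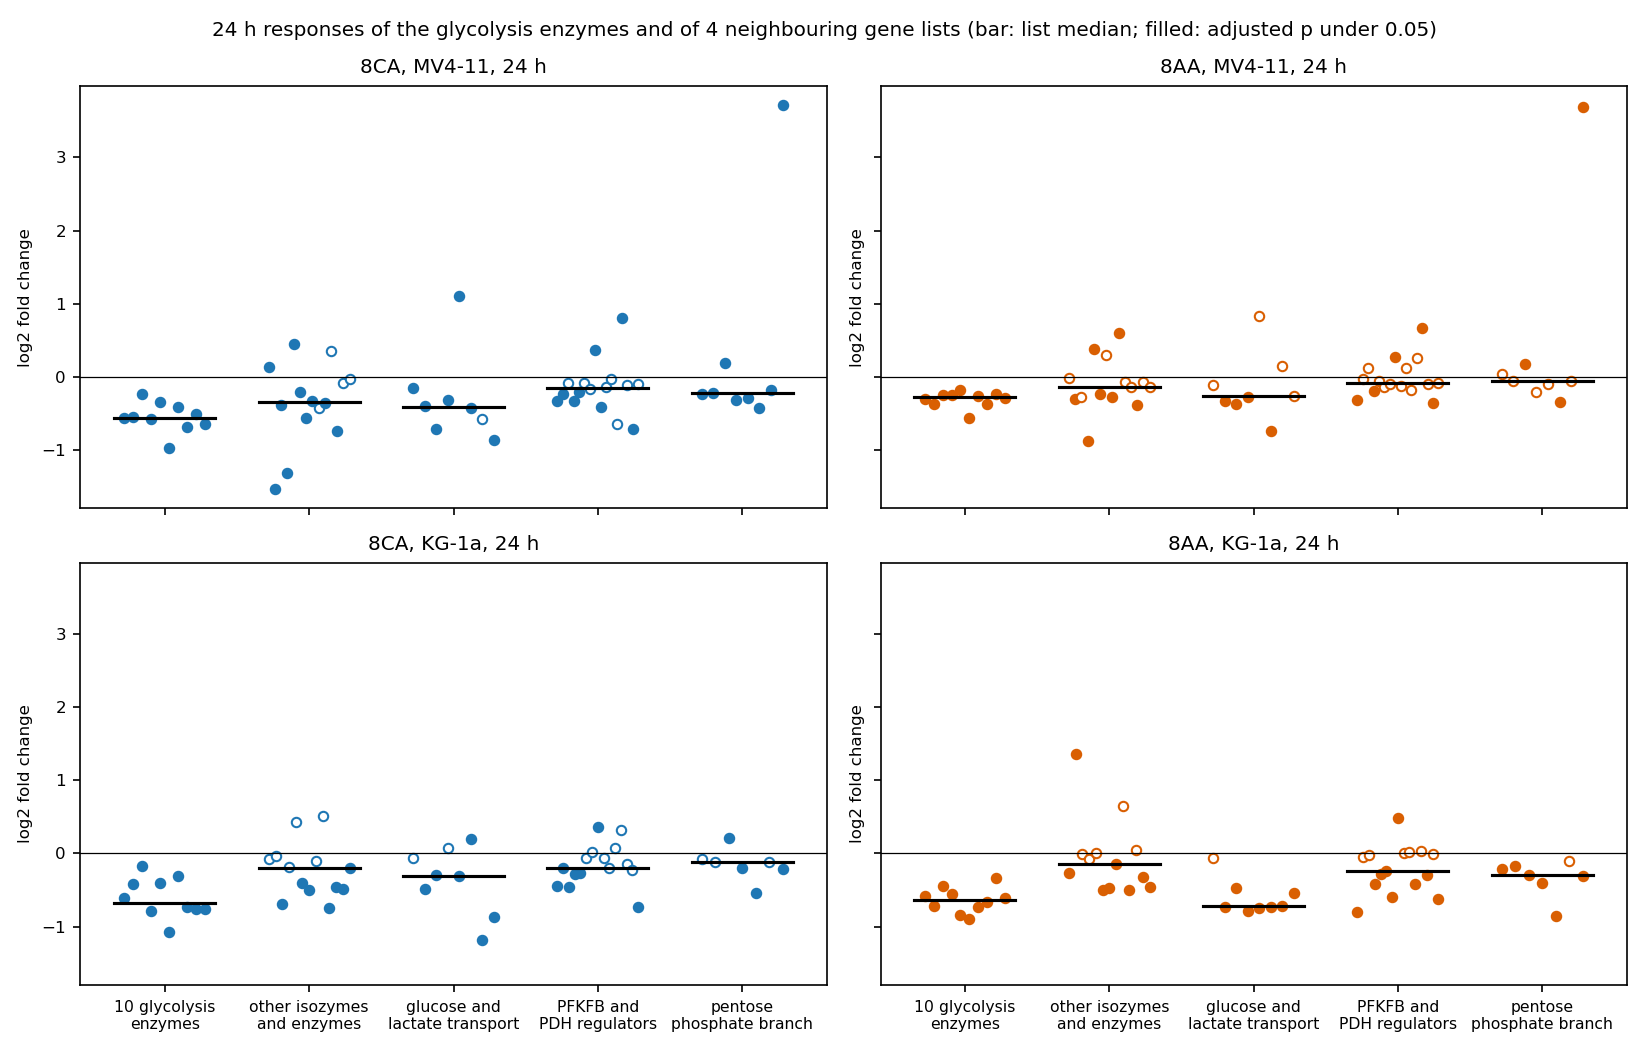
Log2 fold changes at 24 h of the 10 glycolysis enzymes and of the tested genes of 4 lists around the pathway, 1 point a gene, filled where the adjusted p is under 0.05, with black bars for list medians. All points of the first column lie below 0 and are filled in each panel, while the other columns hold points on both sides of 0 or open points.

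Over the 24 libraries, centred within each line, the members followed their own mean to different degrees. Pearson's r of log2 CPM with the mean of the 10 was 0.989 for PGK1, 0.985 for LDHA, 0.977 for ALDOA, 0.971 for TPI1, 0.969 for GPI and 0.961 for ENO1. It was lower for PKM (0.887), GAPDH (0.863) and PFKP (0.841) and lowest for HK2 (0.616). Each member is itself a part of that mean, and the libraries share their controls and their depth. Of 14055 genes tested in that fit, those in no list here with the highest r were PPP1R14B (0.985), CLPB (0.984), RPN1 (0.981), POLD2 (0.979) and COLGALT1 (0.979).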

How the data were processed

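Total RNA of 24 libraries was sequenced, 2 per group of line, treatment and hour. The authors deposited raw read counts per gene with exon lengths. The submitters' processing notes name Trimmomatic, STAR 2.6.0, HTSeq 0.11.1, edgeR and the builds hg19 and hg38 without a role, and strand use is not given in the sources used here. Counts from overlapping or near-identical genes therefore carry an error of unknown size. The table held 0 mitochondrial genes, and 0 columns had no matching sample.

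Here, groups came from the labels, and differential expression was computed in R 4.3.3 with edgeR 4.0.16: genes were kept by filterByExpr (minimum count of 10), which left 12800 genes in MV4-11 and 12711 in KG-1a, counts were scaled by TMM, and contrasts of the 6 groups of a line were tested by glmQLFit and glmQLFTest with p-values adjusted by Benjamini-Hochberg over every gene tested. Differences between the lines came from 1 fit of all 24 libraries with 14055 genes. CPM and RPKM were computed from the TMM-scaled library sizes. The tests were checked on simulated counts. Alternatives were other scalings, filters, DESeq2 1.42.0, the replicate letter as a block, all libraries in 1 fit and leaving out each library. The letters A and B were not treated as pairs in the main fit, and how they relate is described under the limits. The members and the lists (other glycolysis isozymes and enzymes, glucose and lactate transport, PFKFB and pyruvate dehydrogenase regulators, pentose phosphate branch, and markers) were chosen with earlier results of these data known. Named were all members and at most 4 genes per list by the largest log2 fold change over the 8 comparisons with untreated cells. Also named were LDHB, PGAM1, HK1, PFKL and the 5 genes in no list whose centred log2 CPM correlated best with the members' mean. The level of 1 marker gene is not reported here.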

Additional observations from a re-analysis of the deposited data

Results flagged for a closer look

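Each value listed here is a difference between responses on the log2 scale that passed edgeR's quasi-likelihood test of the difference itself (Benjamini-Hochberg adjusted p under 0.05), either of 24 h against 8 h within a line or of MV4-11 against KG-1a at 1 hour. With 8CA in MV4-11 the response at 24 h differed from that at 8 h for GPI by −0.52, PFKP by −0.25, ALDOA by −0.55, TPI1 by −0.59, GAPDH by −0.27, PGK1 by −0.61, ENO1 by −0.48, PKM by −0.49 and LDHA by −0.75. With 8AA in MV4-11 it differed for HK2 by 0.26, TPI1 by −0.27, PGK1 by −0.23 and LDHA by −0.27. With 8CA in KG-1a it differed for HK2 by −0.27, GPI by −0.69, PFKP by −0.24, ALDOA by −0.54, TPI1 by −0.72, PGK1 by −0.71, ENO1 by −0.38, PKM by −0.68 and LDHA by −0.93. With 8AA in KG-1a it differed for HK2 by −0.24, GPI by −0.55, PFKP by −0.45, ALDOA by −0.61, TPI1 by −0.63, GAPDH by −0.48, PGK1 by −0.65, ENO1 by −0.69, PKM by −0.42 and LDHA by −0.80. Between the lines, the response to 8AA at 8 h differed for HK2 by 0.20. The response to 8CA at 24 h differed between the lines for PKM by 0.28. That to 8AA at 24 h differed for HK2 by 0.68, GPI by 0.32, PFKP by 0.50, ALDOA by 0.31, TPI1 by 0.35, PGK1 by 0.31, ENO1 by 0.36 and LDHA by 0.35. Groups of 2 libraries are too small for a check of single libraries that stand apart within a group, other than the chi-square values given above.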

How the results depend on the processing

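Of 3140 values of a member in a comparison under an alternative, 2964 stayed on their side of the threshold without a reversed call, 97 of them uncalled values that changed sign, 124 lost a call, 50 gained one and 2 reversed, and 103 of the lost calls came from leaving out a library. ALDOA, 8AA against 8CA in KG-1a at 24 h, went from 0.026 to −0.11 without KG-1a 8AA replicate A and to 0.15 without replicate B. PGK1, untreated MV4-11 against KG-1a at 24 h, went from 0.017 to −0.091 with scaling by library size only, under which the median of all genes was −0.11 there and 0.11 for 8AA against untreated in KG-1a at 24 h, where it was 0.013 with TMM. The number of members called for the 8AA response at 24 h against 8 h in MV4-11 was 4, and 7 with library size only, 9 without a filter and 9 with the replicate block, and 0 to 7 as single libraries were left out. For the line difference of the 8CA response at 8 h it was 0, and 1 with library size only, with at least 10 counts in every library and with DESeq2. For that of the 8AA response at 8 h it was 1, and 0 with DESeq2's size factors, upper quartile scaling, DESeq2 or any library left out. It stayed 1 with library size only, no filter and at least 10 counts in every library, but with LDHA called in place of HK2. For that of 8CA at 24 h it was 1, and 2 with library size only and without a filter, and 0 to 1 without single libraries. For that of 8AA at 24 h it was 8, and 4 to 10 without single libraries. For 8AA against 8CA at 8 h it was 1 in MV4-11 (0 to 1 without single libraries) and 3 in KG-1a (1 to 2). For 8AA against 8CA in KG-1a at 24 h it was 7, and 5 to 10 without single libraries. For untreated KG-1a at 24 h against 8 h it was 0, and 1 without a filter, with the replicate block, with DESeq2 and with all 24 libraries in 1 fit. The causes of these shifts were not tested. Over all genes tested, same-lettered libraries showed little common deviation, with correlations of −0.078 to 0.11 over the 8 comparisons with untreated cells. The summed level of the members, however, was lower in A than in B in every MV4-11 group. It was higher in A in every KG-1a group of 8 h, and at 24 h in KG-1a the order differed between groups. Whether the letters mark a shared batch was not tested. With 2 libraries per group, 95% intervals of the comparisons with untreated cells reached up to 0.14 on the log2 scale to either side.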
